A study of Capra hircus with 30 samples.

Results

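Granulosa cells of large follicles (LLG) were compared with granulosa cells of medium follicles (LMG) in the low fertility class of Ji'ning grey goats. The 10 libraries were chosen by their labels: 5 libraries carry the prefix LLG and 5 carry LMG, of 30 libraries in the study. The study crossed 2 fertility classes with 3 follicle sizes in 6 groups of 5 libraries. The high fertility groups are HLG, HMG and HSG for large, medium and small follicles, and the remaining low fertility group, from small follicles, is LSG. Fertility class was set by litter size, and the labels and the study's methods do not give the same limits for it. LLG and LMG share the breed, the low fertility class and the source (total RNA of ovarian granulosa cells), and differ by follicle size only, as far as the labels say. No allele, agent or goat age is given for either group. Per the study's methods, follicles came from several goats, and cells of 1 follicle size were then split into small samples of cells. The methods state the same range of cell numbers for all granulosa cell samples, and no number for a single library. Which goats stand behind a library is not stated, so the p-values below measure the spread between libraries, which may be technical. Libraries are named by group and by the number in the label (5, 7, 8, 9 or 10).

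Granulosa cells line the follicle around the oocyte. They divide under follicle-stimulating hormone while a follicle grows, turn androgens into oestradiol through the aromatase CYP19A1, and secrete inhibins and activins. Late in growth a selected follicle gains receptors for luteinizing hormone, and its granulosa cells then leave the cell cycle and turn to progesterone synthesis. The step from medium to large follicles covers the later part of this course, and the comparison asks how granulosa cell transcripts differ between these sizes where fertility is low.

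Values are FPKM (fragment numbers divided by feature length and by the library's mapped total), so levels of different genes can be set side by side per length. The table holds 20125 features. An exact 0 was common, also for genes that every cell uses. Of 28 genes abundant in most cells, on average 29.3% were above 0 in LLG libraries and 50.7% in LMG libraries. Levels above 0 could be low as well. ACTB, which encodes the cytoskeletal protein beta-actin, was at 0.11, 0.50, 0, 0.14 and 0.07 FPKM in LLG-5, LLG-7, LLG-8, LLG-9 and LLG-10, and at 0.46, 0.47, 0.22, 0.11 and 1.70 FPKM in LMG-5, LMG-7, LMG-8, LMG-9 and LMG-10. A gene at 0 is therefore called listed at 0 here, and the number of libraries above 0 stands beside each level. In samples of this kind, fewer cells and less RNA per cell cannot be told apart. The table holds no read counts, and the read numbers the study lists, which cover 8 of these 10 libraries, were not used here. LLG-5 and LLG-7 are absent from the list of mapped libraries among the study's supplementary files, and the main results are also given without them.

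Defining granulosa cell markers were mostly listed at 0 within a library, at either size. Across the 10 libraries, 10 of the 14 in the table were above 0 at least once. Of 14 markers in the table, FSHR (the receptor for follicle-stimulating hormone), INHA (the inhibin alpha subunit), HSD17B1 and SERPINE2 were listed at 0 in all 10 libraries. CYP19A1 was above 0 in 1 LLG and 2 LMG libraries, and AMH and LHCGR, the luteinizing hormone receptor, in 0 LLG and 1 LMG library each. LLG libraries held between 0 and 2 of the 14 markers and LMG libraries between 2 and 6. As a share of the markers this was 8.57% in LLG and 27.1% in LMG on average, below the mean share of all features above 0 (10.4% and 38.6%). Most markers of other cell types were also listed at 0 in most libraries. Of 8 oocyte markers, 0 were above 0 in LLG and between 0 and 2 in LMG, where summed levels ran from 0 to 3.09 FPKM. BMP15, ZP2 and ZP3 were listed at 0 in all 10 libraries, and GDF9 was at 1.43 FPKM in LMG-9 and at 0 elsewhere. Of 11 theca markers LLG libraries held 0 to 5 and LMG libraries 1 to 7, with summed FPKM of 0 to 3.02 and 0.03 to 2.24, and of 12 immune markers 0 to 4 and 1 to 4, with summed FPKM of 0 to 6.98 and 0.33 to 2.83. Of 10 endothelial markers the groups held 0 to 2 and 1 to 4, of 6 epithelial markers 0 to 2 and 1 to 3, and of 4 erythroid markers 0 and 0 to 1 per library. A reference list of 28 neurotransmitter receptor genes, which granulosa cells are not known for, had more members above 0 than the granulosa list, on average 17.9% in LLG and 57.9% in LMG. The libraries are called granulosa cells as labelled, since the markers identified neither these cells nor another listed type. How far cells of another type contributed to the results was not tested.

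The clearest difference between the sizes was in how many features were detected. LLG-5, LLG-7, LLG-8, LLG-9 and LLG-10 had 875, 301, 5843, 2446 and 988 features above 0 FPKM, and LMG-5, LMG-7, LMG-8, LMG-9 and LMG-10 had 8349, 6414, 8523, 9256 and 6330. Every LLG library lay below every LMG library, and LLG-8 alone came near the LMG range. The means were 2091 ± 2242 in LLG and 7774 ± 1325 in LMG (SD, n = 5 each), a difference of -5684 features (two-sided exact permutation test over 252 assignments, p = 0.00794, the smallest this design allows, and 0.0476 adjusted over 6 library measures).

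At a limit of 1 FPKM the LLG libraries had 515, 201, 2284, 745 and 463 features and the LMG libraries 2088, 2336, 2156, 2286 and 2168. LLG-8 lay inside the LMG range here and the other 4 LLG libraries far below it. The difference in means was -1365 features (exact permutation test, p = 0.0317, adjusted p = 0.0476). Features at 10 FPKM or more went the other way. The LLG libraries had 229, 129, 130, 284 and 254 and the LMG libraries 89, 100, 89, 82 and 131, so that 3 LLG libraries lay above the LMG range while LLG-7 and LLG-8 lay just under its highest library. LLG was higher by 107 features (exact permutation test, p = 0.0238, adjusted p = 0.0476). Without LLG-5 and LLG-7 the 3 differences were -4682, -1043 and 124.5 features and none kept an adjusted p under the threshold (exact permutation tests, adjusted p = 0.107 for each). Dropping any LMG library also took the 3 adjusted p-values above 0.05, as did dropping LLG-5 for the counts at 1 and 10 FPKM and dropping LLG-7 for the count at 1 FPKM, with a range over all single libraries left out of 0.0159 to 0.111 (exact permutation tests).

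**Figure D1:**
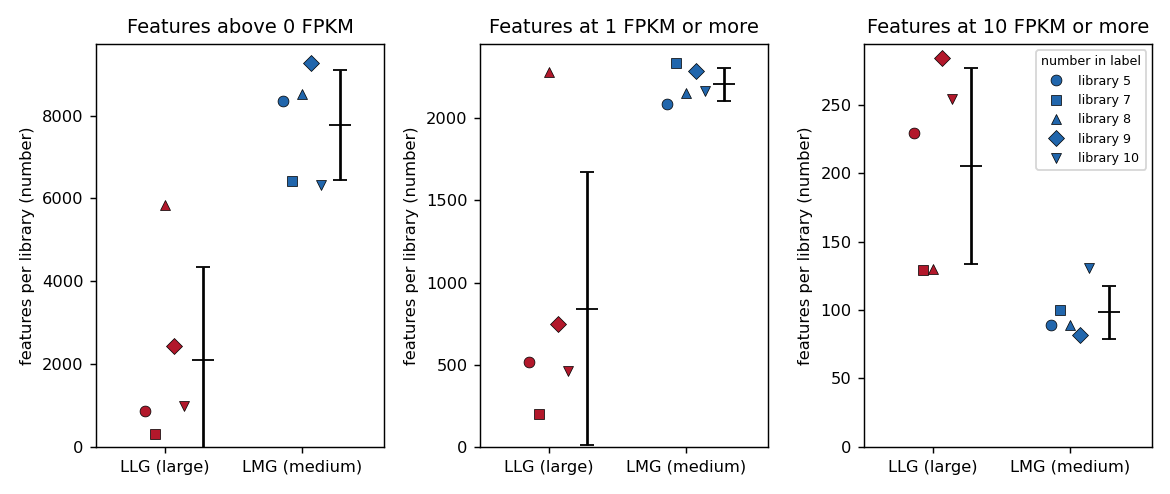
Number of features per library above 0 FPKM, at 1 FPKM or more and at 10 FPKM or more (y axes, counts from 0) for the 5 LLG and 5 LMG libraries (x axes). Symbols are libraries by the number in their label and the bars are mean ± SD, with the lower LLG bar in the left panel running past 0; LLG-8 reaches 5843 features above 0, still below the lowest LMG library at 6330.

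The summed FPKM did not separate the groups. It was 44284.8, 35201.7, 67322.4, 82952.0 and 66842.4 in the LLG libraries and lay between 55093.8 and 68707.4 in the LMG libraries, a difference in means of -2443 (exact permutation test, p = 0.810, adjusted p = 0.913). Most of the total came from the 58 features above 0 in all 30 libraries, which took 85.2% to 90.3% in LLG and 87.3% to 88.4% in LMG (difference 0.223 percentage points, exact permutation test, p = 0.913). Without LLG-5 and LLG-7 this difference was 1.48 percentage points (exact permutation test, adjusted p = 0.107).

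High values outside the shared features were mostly seen in 1 library at a time. Leaving aside the 67 features above 0 in all 10 libraries, 724 features reached 10 FPKM or more in at least 1 LLG library, and 699 of these (96.6%) did so in 1 LLG library only. In LMG, 138 features reached this level and 117 of them (84.8%) did so in 1 LMG library only. Of the LLG features, 350 reached 10 FPKM in 1 library and were listed at 0 in the other 4, against 33 in LMG. EEF1A1, the elongation factor that brings transfer RNA to the ribosome, was also uneven among LLG libraries, although it passed 10 FPKM in both LLG-5 and LLG-10. It was at 18.34, 0, 4.21, 0.57 and 35.84 FPKM in the LLG libraries and at 2.08, 1.36, 2.23, 2.37 and 0.63 FPKM in the LMG libraries. The LMG values lay within a narrow band, and the LLG values lay on both sides of it.

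Most features were above 0 in more LMG than LLG libraries. This held for 14128 of 20125 features (70.2%), while 999 (4.96%) were above 0 in more LLG libraries, 1387 were above 0 in equal numbers and 3611 were listed at 0 in all 10. Of the 7842 features above 0 in at least 1 LLG library, 5861 were above 0 in exactly 1 LLG library, and 4070 of those were in LLG-8. Between 90.5% and 96.4% of the features of each LLG library were also above 0 in at least 1 LMG library. All 5 LMG libraries were above 0 for 1896 features and all 5 LLG libraries for 69.

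**Figure D2:**
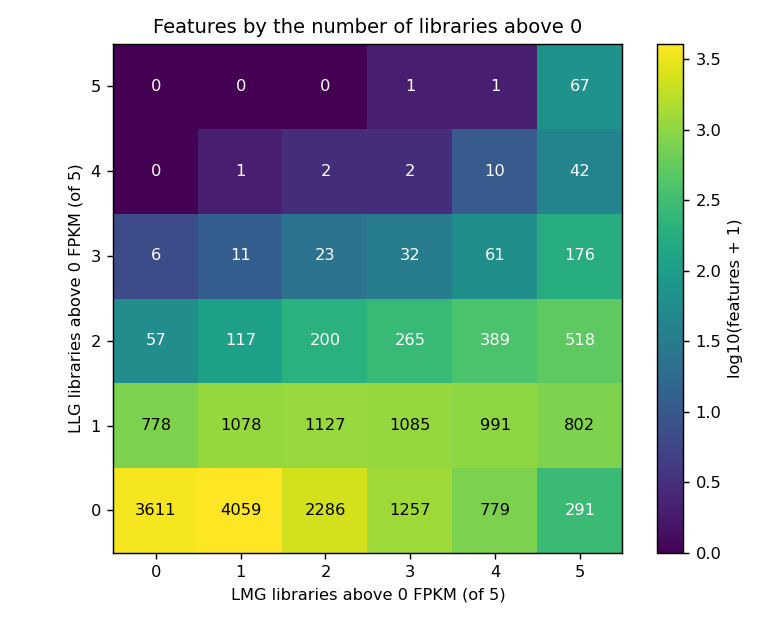
Number of features (number and colour of each square, colour as log10 of features + 1) by the count of LMG libraries above 0 FPKM (x axis, of 5) and of LLG libraries above 0 FPKM (y axis, of 5). The lower right corner holds 291 features above 0 in all 5 LMG and 0 LLG libraries, the upper left corner holds 0, and the upper right corner holds the 67 shared features.

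In all 5 LMG libraries and 0 LLG libraries there were 291 features (1.45% of all), of which 247 had a gene symbol, whereas 0 features showed the opposite pattern. THUMPD3, a methyltransferase of transfer RNA, had the highest floor. It was at 0.76, 1.42, 1.16, 1.65 and 1.16 FPKM in LMG-5, LMG-7, LMG-8, LMG-9 and LMG-10 and listed at 0 in LLG. MDM4, an inhibitor of p53, was at 0.64, 2.21, 0.96, 1.59 and 1.56 FPKM in LMG. RIT1, a small GTPase of the RAS family, was at 1, 1.37, 3.72, 1.74 and 0.59 FPKM. The zinc finger gene ZNF605 ran from 0.60 to 3.35 FPKM and KCNA4, a voltage-gated potassium channel, from 0.54 to 3.59 FPKM, both listed at 0 in every LLG library. These levels are modest, and in the 5 LSG libraries the same 5 genes were above 0 in 2 or 3. By Fisher's exact test, counting libraries above 0 in each group, adjustment left 0 of 20125 features (lowest adjusted p = 0.512). At an unadjusted p under 0.05 there were 1872 features, all with more LMG libraries. With 5 libraries a side the smallest p of Fisher's exact test is 0.00794, reached by the 291 features. That is too few for any to pass adjustment over 20125 features, so the 0 calls say little about single features.

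On the other side, 6 features were above 0 in 3 LLG libraries and listed at 0 in all LMG libraries, against 2327 above 0 in at least 3 LMG and 0 LLG libraries. ALOX12, a lipoxygenase that oxidises arachidonic acid, was at 8.74, 24.53 and 0.02 FPKM in LLG-5, LLG-7 and LLG-8. IL13RA1, a receptor subunit for interleukin 13, was at 3.08, 0.54 and 0.02 FPKM in LLG-5, LLG-8 and LLG-9. GPAT3, an enzyme of triacylglycerol synthesis, was at 0.09, 0.02 and 10.45 FPKM in LLG-8, LLG-9 and LLG-10. The splicing factor gene SF3B2 stayed at or below 0.37 FPKM, and the remaining 2 were MXLOC_623370, at up to 1.09 FPKM, and LOC102169846, at 125.1 FPKM in LLG-7, 0.61 in LLG-8 and 34.16 in LLG-9. Apart from ALOX12, these features were picked after their values were seen, since the naming rule did not cover them.

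Gene by gene, limma on log2(FPKM + 1) called 0 of 6058 tested features between LLG and LMG at an adjusted p under 0.05 (0.0%, lowest adjusted p = 0.0705). At an unadjusted p under 0.05, 543 features (8.96%) were lower and 25 (0.413%) higher in LLG. In all, 4968 features (82.0%) had a negative difference and the median over all tested features was -0.35 on the log2 scale. Differences of single genes are to be read against that median. The split depended on the libraries and on detection. Without LLG-5, LLG-7 and LLG-10, each with fewer than 1000 features above 0, 173 features were higher and 88 lower at an unadjusted p under 0.05. Without the 4 libraries absent from the mapping list (LLG-5, LLG-7, HLG-5 and HSG-5), 92 were higher and 211 lower, with 0 called (limma, lowest adjusted p = 0.128). With each library's count of detected features as a covariate, 160 were higher and 97 lower, and the median was -0.018. With quality weights for the libraries, limma called 636 features, 630 of them lower and 6 higher in LLG. Of the 636, 622 were above 0 in more LMG than LLG libraries, as were 70.2% of all 20125 features. The latter include features too rare to be tested, and the share over the 6058 tested features was not computed. That count is not independent of the calls, since more zeros in LLG also lower its mean.

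C22H3orf62 had the lowest limma p. It was listed at 0 in 4 LLG libraries and was at 0.02 FPKM in LLG-8, against 0.21, 2.99, 1.28, 1.56 and 7.93 FPKM in LMG-5, LMG-7, LMG-8, LMG-9 and LMG-10. The groups did not overlap. Its log2 difference was -1.59 ± 0.32 (SE), with a limma p of 1.16e-05 and an adjusted p of 0.0705. Leaving out LMG-5, LMG-8, LMG-9 or LMG-10 moved the limma adjusted p below 0.05, to 0.00154, 0.0201, 0.02 and 0.0491, and over all single libraries left out it lay between 0.00154 and 0.260. Without the 4 libraries absent from the mapping list it was 0.700 (limma), with a log2 difference of -1.59. In the other groups, C22H3orf62 was above 0 in 1 library each of LSG, HLG, HMG and HSG, with a highest value of 0.59 FPKM in LSG.

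CDCA7L, which encodes a MYC-interacting regulator of transcription, was listed at 0 in all LLG libraries and was at 0.23, 1.03, 0.80, 2.66 and 3.41 FPKM in the LMG libraries. It was listed at 0 in LSG and HMG as well. SHTN1, a protein that links actin to axon growth in neurons, was at 1.66, 2.54, 1.93, 0 and 4.95 FPKM in LMG and listed at 0 in LLG. CCDC115, an accessory protein of the vacuolar proton pump, was at 0.47, 3.44, 2.81, 2.41 and 3.65 FPKM in LMG and listed at 0 in LLG. With the exception of LMG-9 for SHTN1, each LMG library was above each LLG library for these genes. Their log2 differences were -1.24 ± 0.29, -1.47 ± 0.35 and -1.73 ± 0.44 (SE), with limma adjusted p of 0.106, 0.106 and 0.180. The other 6 genes of the 10 with the lowest p in this direction were SPATC1L, MALL, HECTD2 (a ubiquitin ligase), ZNF879, C10H14orf37 and MTFR1 (a regulator of mitochondrial fission), with limma adjusted p from 0.180 to 0.242. None exceeded 0.15 FPKM in any LLG library or 3 FPKM in any LMG library. HECTD2, ZNF879 and C10H14orf37 were above 0 in all 5 LMG libraries and listed at 0 in LLG, and SPATC1L, MALL and MTFR1 were above 0 in 4 LMG libraries.

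Of the features without a gene symbol and with the lowest p, MXLOC_653941 had the highest LMG level. It was at 0.57, 0, 4.57, 0.25 and 0.28 FPKM in LLG-5, LLG-7, LLG-8, LLG-9 and LLG-10 and at 45.21, 19.30, 18.99, 32.45 and 50.41 FPKM in the LMG libraries. The highest LLG value lay well below the lowest LMG value. The log2 difference was -4.23 ± 0.95 (SE, limma adjusted p = 0.0891), and the adjusted p was 0.0408 when features had to pass the filter in 10 libraries and 0.0164 with a pseudocount of 0.1. It was above 0 in all 5 libraries of every other group. The ranges were 10.96 to 61.23 FPKM in LSG, 0.73 to 22.31 in HLG, 0.54 to 68.68 in HMG and 1.25 to 72.29 in HSG. In HLG, HMG and HSG the lowest value thus lay below the highest LLG value, 4.57 FPKM. MXLOC_1289665 was listed at 0 in LLG and LSG and was at 0.89, 1.46, 0.86, 1.48 and 2.70 FPKM in LMG (limma adjusted p = 0.0752). What the MXLOC identifiers stand for is not given in the sources used here.

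The genes with the lowest p in the other direction carried high values in a few LLG libraries. YIPF6, a Golgi membrane protein, was at 6.43, 33.97, 1.25, 0 and 8.78 FPKM in LLG-5, LLG-7, LLG-8, LLG-9 and LLG-10 and at 0.45, 0.33, 0.40, 0 and 0 FPKM in the LMG libraries. ZNF800, a zinc finger gene, was at 0, 33.11, 0.93, 7.43 and 55.29 FPKM in LLG and at 0.02, 0.95, 1.91, 1.33 and 1.36 FPKM in LMG. RACK1, a scaffold protein of the small ribosomal subunit, was at 37.04, 0, 2.67, 0.28 and 0.07 FPKM in LLG and at 0, 0, 0, 0.48 and 0.06 FPKM in LMG. Each of these genes overlapped between the groups, because at least 1 LLG library was listed at 0. Their log2 differences were 2.21 ± 0.62, 1.99 ± 0.73 and 1.39 ± 0.60 (SE), with limma adjusted p of 0.250, 0.463 and 0.485.

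PITPNA, a phosphatidylinositol transfer protein, was at 26.33 and 30.95 FPKM in LLG-9 and LLG-10, at 0.94 and 0.60 FPKM in LMG-9 and LMG-10, and listed at 0 elsewhere. BPGM, which makes 2,3-bisphosphoglycerate, was at 17.12 FPKM in LLG-5 and 0.73 in LLG-8 and listed at 0 in LMG. BDKRB2, the bradykinin B2 receptor, was at 15.69 FPKM in LLG-10, 1.45 in LLG-8 and 0.03 in LMG-9. In all 3 genes the level rested on 1 or 2 LLG libraries. KIAA0895, SNX12 (a sorting nexin) and ARPC5 (a subunit of the actin-nucleating ARP2/3 complex) reached 17.75, 11.30 and 21.65 FPKM in their highest LLG library and 0.62, 1.69 and 0.71 FPKM in their highest LMG library. Limma adjusted p for these genes and ALOX12 lay between 0.463 and 0.485. Without LLG-5, LLG-7 and LLG-10 the log2 differences of KIAA0895 and ARPC5 turned to -0.24 and -0.28, that of YIPF6 was 0.30 and that of ALOX12 0.014. In that comparison limma called 3 features, all higher in LLG. SLC25A13, the mitochondrial aspartate-glutamate carrier, was at 3.71 and 32.45 FPKM in LLG-8 and LLG-9 (log2 difference 3.37, limma adjusted p = 0.00843), SLITRK1, a neuronal transmembrane protein, at 5.42 and 18.25 FPKM (3.03, adjusted p = 0.0132), and MXLOC_1548977 at 3.31 and 7.19 FPKM (2.57, adjusted p = 0.0132). All 3 were listed at 0 in LLG-5, LLG-7 and LLG-10. In LMG, SLITRK1 was above 0 in all 5 libraries, at 0.05 to 1.37 FPKM, SLC25A13 in 3, at up to 1.06 FPKM, and MXLOC_1548977 in 0.

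**Figure D3:**
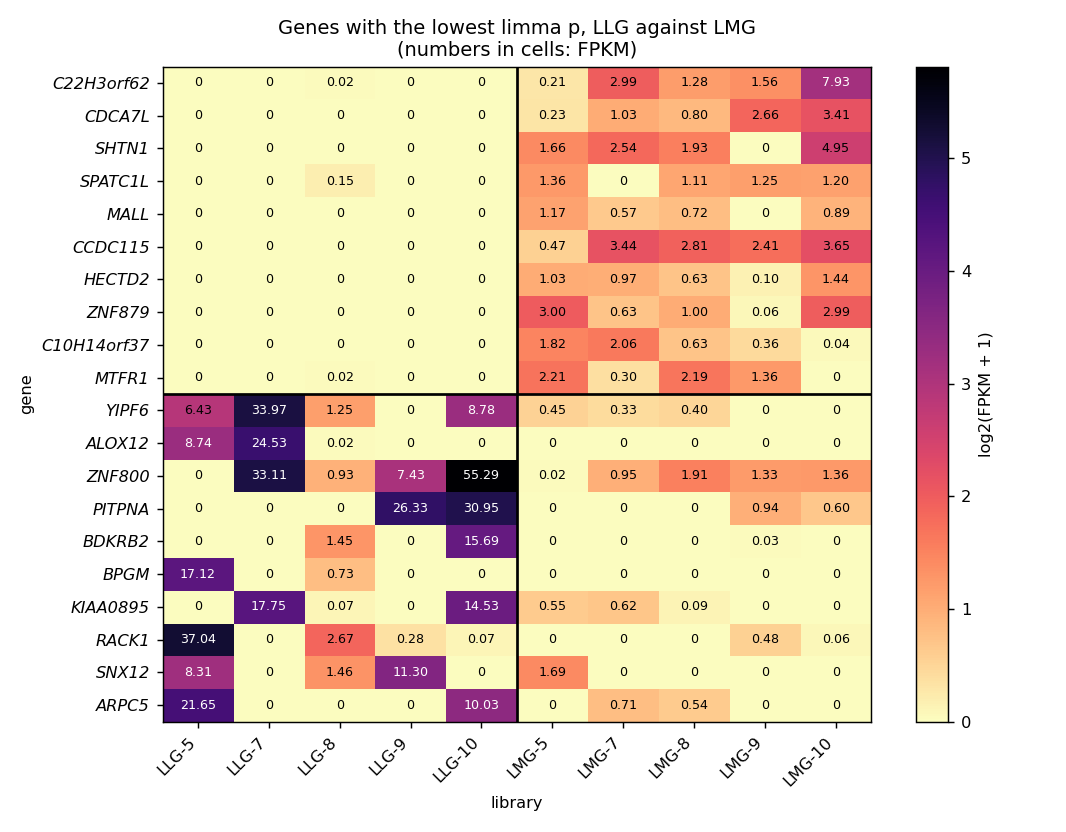
FPKM of the 10 genes with the lowest limma p in each direction (y axis) in the 10 libraries (x axis), with the FPKM written in each square and the colour giving log2(FPKM + 1). The upper 10 genes are at or below 0.15 FPKM in every LLG library, whereas the lower 10 have values over 8 FPKM in 1 or 2 LLG libraries and 0 in others, and none of the 20 passed the adjusted threshold.

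For the features shared by all 10 libraries every library had a level to compare. Of the 67 features above 0 in all 10 libraries, 12 had a gene symbol and 40 had no NCBI gene number. Limma called 0 of them, with 9 at an unadjusted p under 0.05 and a median log2 difference of -0.34, close to the median over all tested features. The coefficient of variation among LLG libraries exceeded that among LMG libraries for 67 of the 67, with medians of 61.0% and 15.2%, and for 12 of the 12 with a symbol, with medians of 69.0% and 18.7%. MMGT1 was the only feature of the 67 for which the ranges of the groups did not overlap. Among all 20125 features at least 291 (1.45%) did not overlap, those above 0 in all 5 LMG and 0 LLG libraries. None of those 291 can be among the 67, so that share does not show whether a single such feature among the 67 is unusual.

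EGFR, the receptor for epidermal growth factor-like ligands that relay the ovulatory signal through the follicle, was at 18.51, 67.89, 49.52, 58.90 and 31.78 FPKM in LLG-5, LLG-7, LLG-8, LLG-9 and LLG-10 and at 40.55, 37.25, 41.00, 43.36 and 38.98 FPKM in the LMG libraries. The LMG values lay close together and the LLG values fell on both sides of them (coefficients of variation 44.3% and 5.69%; log2 difference 0.03 ± 0.50 SE, limma adjusted p = 0.984). CDKN1A, the cell cycle inhibitor p21, was at 2.99, 7.65, 14.98, 27.09 and 19.53 FPKM in LLG and at 19.77, 14.69, 10.24, 19.03 and 11.20 FPKM in LMG, again with LLG values on both sides (log2 difference -0.30 ± 0.79 SE, limma adjusted p = 0.877).

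The peroxisomal genes PXMP4 and PEX2 were both shared. PXMP4, a peroxisomal membrane protein, was at 23.75, 32.30, 73.28, 13.12 and 41.71 FPKM in LLG and at 75.85, 58.80, 66.47, 79.45 and 59.02 FPKM in LMG. LLG-8 lay inside the LMG range and the other 4 LLG libraries below it (log2 difference -1.07 ± 0.48 SE, limma adjusted p = 0.490). PEX2, a ubiquitin ligase needed to import proteins into peroxisomes, was at 0.16, 9.30, 23.59, 51.31 and 0.05 FPKM in LLG and at 18, 16.74, 29.92, 23.75 and 29.95 FPKM in LMG. Its LLG values spanned a wide range, with LLG-9 above and 3 libraries below all of LMG (log2 difference -1.79 ± 0.94 SE, limma adjusted p = 0.535).

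MMGT1, a subunit of the endoplasmic reticulum membrane protein complex, was at 0.02, 0.04, 4.61, 4.06 and 0.06 FPKM in LLG and at 4.82, 7.50, 7.35, 7.94 and 12.60 FPKM in LMG. Every LLG value was below every LMG value, although LLG-8 missed the LMG range only narrowly (log2 difference -2.12 ± 0.82 SE, limma adjusted p = 0.470). FFAR4, a receptor for long-chain fatty acids, was at 2.96, 0.05, 23.32, 2.75 and 1.63 FPKM in LLG and at 18.19, 9.35, 11.60, 15.70 and 14.50 FPKM in LMG. LLG-8 was the highest of the 10 and the other LLG libraries were the 4 lowest (log2 difference -1.87 ± 0.73 SE, limma adjusted p = 0.485).

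SGCB (beta-sarcoglycan), NIPSNAP1 (a mitochondrial protein), BRI3BP, TTC4 (a cochaperone of HSP90), NIF3L1 and MRS2 (the mitochondrial magnesium channel) completed the list. Their log2 differences lay between -1.46 for NIF3L1 and 0.13 for MRS2, with limma adjusted p from 0.576 to 0.940. NIF3L1 was at 0.08 and 0.14 FPKM in LLG-5 and LLG-7 and at 8.92 FPKM or more in the other 8 libraries. TTC4 was at 0.06 and 1.16 FPKM in LLG-7 and LLG-10 and at 8.51 FPKM or more elsewhere, and BRI3BP was at 0.37 FPKM in LLG-7 and at 17.79 FPKM or more elsewhere. The lowest LLG value of each of these 6 genes was in LLG-5, LLG-7 or LLG-10, the LLG libraries with the fewest features.

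**Figure D4:**
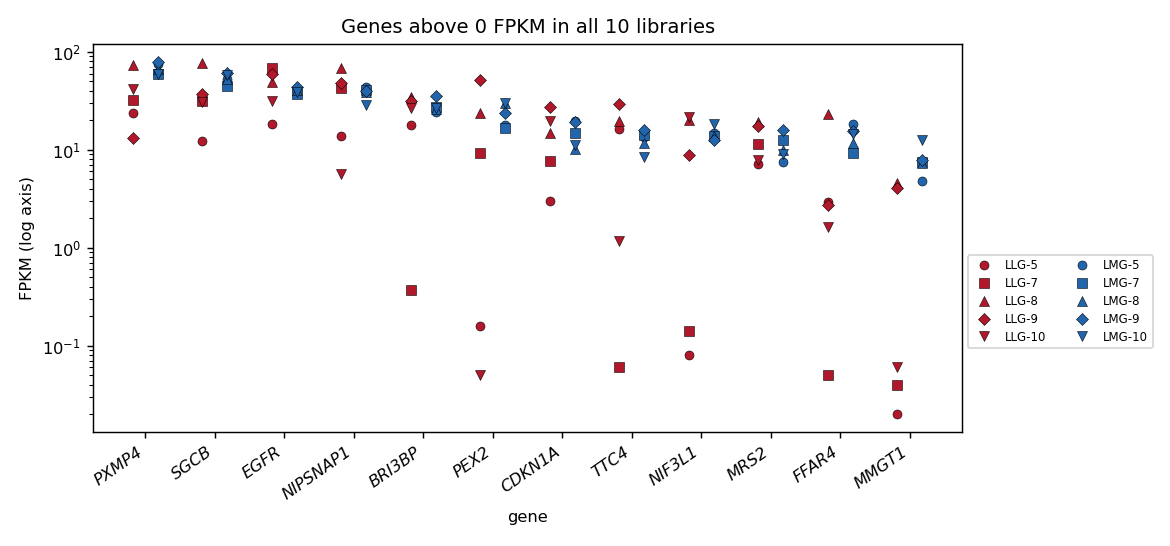
FPKM (y axis, log scale) of the 12 genes with a symbol above 0 in all 10 libraries (x axis), with LLG in red and LMG in blue and a symbol per library number. LMG points sit close together for each gene, while LLG points spread widely, down to 0.02 FPKM for MMGT1 in LLG-5.

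The most abundant features had no gene symbol and were close in level between the sizes. MXLOC_1189582 was at 4544, 3229, 5576, 8091 and 7448 FPKM in LLG and at 4596, 5453, 5807, 5340 and 6521 FPKM in LMG. The LLG range enclosed the LMG range (log2 difference -0.01 ± 0.26 SE, limma adjusted p = 0.996). MXLOC_1165944, MXLOC_291290, LOC108636659 and MXLOC_241915 followed, with limma adjusted p from 0.632 to 0.983.

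How alike the libraries of a group were depended on the features and on the correlation used. Over all tested features, pairs of libraries within a group had a mean Spearman correlation of 0.156 in LLG and 0.135 in LMG (exact permutation test, p = 0.0317, adjusted p = 0.0476). Over the 58 features above 0 in all 30 libraries, where zeros play no part, the LLG minus LMG difference was -0.0873 (exact permutation test, adjusted p = 0.0238). Pearson's correlation of log2(FPKM + 1) over all tested features, zeros included, gave a difference of -0.108 (exact permutation test, adjusted p = 0.0476). The order of the groups therefore turned with the measure. These tests reassign libraries between groups that also differ in detection, so their p-values do not measure likeness alone. Without LLG-5 and LLG-7 the first difference was -0.0043 (exact permutation test, adjusted p = 0.714).

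Genes of hormone response and steroid synthesis were detected less often in LLG than in LMG, as most features were. Of the 14 granulosa markers 2 were tested, of 15 steroid synthesis genes 5, of 17 cholesterol synthesis genes 4 and of 24 genes of gonadotropin and cAMP signalling 12, and limma called 0 of each. The mean share of members above 0 was 9.33% in LLG and 33.3% in LMG for steroid synthesis, 4.71% and 35.3% for cholesterol synthesis, and 15% and 58.3% for gonadotropin and cAMP signalling, beside 10.4% and 38.6% for all features. STAR, which carries cholesterol into mitochondria, was at 2.81 FPKM in LLG-8 and at 1.44 and 0.77 FPKM in LMG-5 and LMG-10, and listed at 0 in the other 7 libraries. FDX1, the electron donor of the mitochondrial steroid enzymes, was listed at 0 in LLG and was at 1.54, 0, 1.01, 1.39 and 7.76 FPKM in LMG (log2 difference -1.35 ± 0.46 SE, limma adjusted p = 0.403). HMGCS1, an early enzyme of cholesterol synthesis, was at 4.37 FPKM in LLG-9, listed at 0 in the other LLG libraries, and at 0.27, 1.98, 0.76, 2.12 and 0.07 FPKM in LMG. Median log2 differences were -0.09, -0.38 and -0.36 for these 3 lists, beside -0.35 over all features.

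Genes of ovulation and luteinization gave a like picture. Of 19 members 8 were tested, 0 were called, and 6 had a negative difference (median log2 difference -0.51). VCAN, a proteoglycan of the expanding cumulus matrix, was at 3.19 and 0.46 FPKM in LLG-5 and LLG-8 and at 0.96, 1.61, 0.94, 1.07 and 0.01 FPKM in LMG. EREG, a ligand of EGFR, was at 6.81 and 1.15 FPKM in the same 2 LLG libraries and at 0.03, 0.48, 0, 2.48 and 0.02 FPKM in LMG. HAS2, which makes hyaluronan, was at 0.35 FPKM in LLG-8 only among LLG libraries and at 0.28, 0.21, 2.31, 2.26 and 0.48 FPKM in LMG. For VCAN and EREG the highest of the 10 values was in LLG-5, although 3 LLG libraries were listed at 0.

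Receptors and SMADs of the TGF-beta and BMP pathways had 15 of 26 members tested and 0 called, with 11 lower and 4 higher in LLG (median log2 difference -0.24). BMPR1A, a BMP type I receptor, was at 0, 0, 2.31, 0.04 and 9.34 FPKM in LLG and at 1.24, 2.61, 0.40, 0.59 and 1.41 FPKM in LMG. ACVR1B, an activin type I receptor, was at 24.13 FPKM in LLG-5, 1.86 in LLG-8 and 0.08 in LMG-9 and listed at 0 in the other 7 libraries (log2 difference 1.21 ± 0.54 SE, limma adjusted p = 0.485). Of 25 NOTCH pathway genes 6 were tested and 0 called (median -0.25). HEY2, a transcriptional repressor induced by NOTCH, was at 0.19 FPKM in LLG-8, listed at 0 in the other LLG libraries, and at 0.59, 0.21, 1.08, 2.65 and 1.93 FPKM in LMG, with no overlap (log2 difference -1.03 ± 0.47 SE, limma adjusted p = 0.492). Of 25 insulin and IGF pathway genes 13 were tested and 0 called (median -0.32).

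Cell division genes, 10 of 31 tested and 0 called, had 9 negative differences (median -0.43). CDK1, the kinase that drives entry into mitosis, was at 3.36 and 4.78 FPKM in LLG-8 and LLG-9, listed at 0 in the other LLG libraries, and at 0.55, 1.03, 0, 1.47 and 0.81 FPKM in LMG. CCNA2, cyclin A, was listed at 0 in LLG and at 0, 0.54, 0.61, 0.54 and 0.14 FPKM in LMG (limma adjusted p = 0.485). The 2 LLG libraries with the most features thus held the highest CDK1 values, above every LMG library. Apoptosis and atresia genes, 9 of 20 tested and 0 called, had 6 negative and 3 positive differences. CASP8, the initiator caspase of death receptors, was at 6.41, 45.62, 3.54, 0 and 0 FPKM in LLG and at 1.53, 1.38, 0.31, 0.08 and 0.15 FPKM in LMG. In 3 LLG libraries it was above all of LMG and in 2 it was listed at 0 (log2 difference 1.47 ± 0.67 SE, limma adjusted p = 0.492). XIAP, an inhibitor of caspases, was at 5.05, 8.43 and 5.85 FPKM in LLG-8, LLG-9 and LLG-10, listed at 0 in LLG-5 and LLG-7, and at 1.13, 0.05, 1.02, 3.36 and 4.62 FPKM in LMG.

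Steroid receptors and their coregulators were split evenly, 4 higher and 4 lower of 8 tested (0 called, median log2 difference 0.05). ESR1, oestrogen receptor alpha, was at 1.40 and 14.22 FPKM in LLG-8 and LLG-9, listed at 0 in the other LLG libraries, and at 0.36, 0.54, 0.49, 1.35 and 0.81 FPKM in LMG. The granulosa and epithelial marker lists, with 2 members tested each, were also split evenly.

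Of 30 ribosomal and translation genes 17 were tested and 0 called, with 11 negative differences (median -0.13). LLG-9 had 26 of the 30 above 0 and LLG-7 had 0, while LMG libraries had between 7 and 22. The levels in LLG-9 were low. Its members summed to 11.96 FPKM, below every LMG library (14.71 to 34.22 FPKM), while LLG-5 reached 97.32 FPKM with 7 members. RPL7, a protein of the large ribosomal subunit, was at 0, 0, 5.98, 0.09 and 0 FPKM in LLG and at 8.44, 2.45, 2.62, 5.55 and 19.87 FPKM in LMG (log2 difference -2.21 ± 0.83 SE, limma adjusted p = 0.463). RPL5, of the same subunit, was highest in LLG-8 at 14.82 FPKM and at 0.42 to 2.86 FPKM in LMG. Of 21 matrix genes LLG-9 held 15 above 0 and the other LLG libraries 0 to 5, while LMG libraries held 7, 7, 13, 18 and 3, so that LLG-9 lay inside the LMG range. The summed level of the matrix genes in any LLG library did not exceed 3.19 FPKM.

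The remaining lists also had 0 calls. Of 27 splicing genes 18 were tested (32.6% of members above 0 in LLG and 68.9% in LMG, median log2 difference -0.29), of 20 heat shock genes 13 (median -0.28), of 27 chromatin genes 12 (median -0.26), of 18 junction genes 11 (median -0.21), of 18 immediate early genes 7 (median -0.28) and of 28 genes abundant in most cells 13 (median -0.40). Of 8 oxidative phosphorylation genes found in the table, out of 29 listed, 2 were tested. HNRNPH1, a splicing regulator, was at 0.04 FPKM in LLG-10, listed at 0 in the other LLG libraries, and at 1.97, 1.31, 0.51, 0 and 3.71 FPKM in LMG (limma adjusted p = 0.463). CTCF, the insulator-binding protein, was at 17.5 FPKM in LLG-7 and at most 0.49 FPKM in the other LLG libraries, against 0.64 to 2.11 FPKM in LMG.

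**Figure D5:**
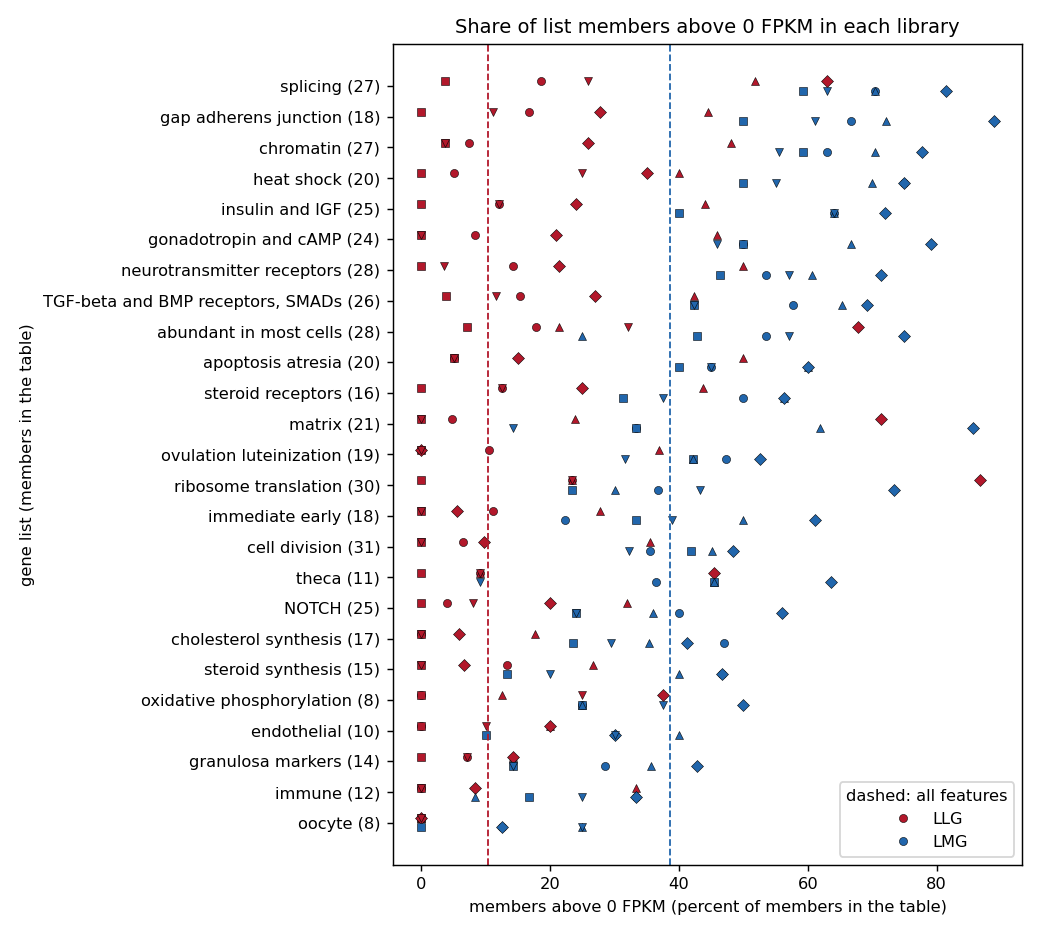
Share of the members of each gene list above 0 FPKM (x axis, percent of members in the table) in each library, with LLG in red, LMG in blue, a symbol per library number as in the plot of features per library, and the number of members in brackets (y axis). Dashed lines give the group means over all features (10.4% and 38.6%). Most lists follow the same order. LLG-9 stands apart from the other LLG libraries in the ribosome and matrix lists and in the list of genes abundant in most cells.

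The large minus medium difference was set beside that of the high fertility class, which shares no library with it. Features above 0 differed by -5684 in the low and by -1776 in the high fertility class, and the difference between the classes, -3908, did not pass after adjustment (exact permutation test over 63504 assignments, p = 0.0526, adjusted p = 0.263 over 5 measures). For features at 1 FPKM or more the class difference was -774 (exact permutation test, adjusted p = 0.487) and for features at 10 FPKM or more it was 52 (adjusted p = 0.487). Limma called 0 of 6058 features for this difference (0.0%, lowest adjusted p = 0.924), with 45 higher and 247 lower at an unadjusted p under 0.05. With the same detection covariate the split turned to 167 higher and 94 lower, again with 0 called. CDCA7L and C22H3orf62 had the lowest p on the lower side, together with HCFC2, a cofactor of transcription. HCFC2 was at 0.63 FPKM in LLG-8, listed at 0 in the other LLG libraries, and at 0.68, 3.22, 2.91, 1.81 and 2.04 FPKM in LMG, while HLG reached 8.96 FPKM in 4 libraries above 0 and HMG 0.45 FPKM in 3 (difference of log2 differences -2.54 ± 0.77 SE, limma adjusted p = 0.924). On the higher side TFAP4, a transcription factor, had the lowest p. It was at 0.03 FPKM in LLG-8 and 0.08 FPKM in LMG-10, listed at 0 in the other LLG and LMG libraries and in HLG, and above 0 in 4 HMG libraries, at up to 4.81 FPKM. NRAS, a RAS GTPase, was next, at 8.09 and 6.86 FPKM in LLG-7 and LLG-8 and at most 0.70 FPKM in LMG, against at most 0.11 FPKM in HLG and 0.08 to 13.01 FPKM in HMG. SEPT7 came after it, at 6.41 FPKM in LLG-8 and at most 0.10 FPKM in the other LLG and LMG libraries, with HMG values of up to 6.92 FPKM and HLG values of at most 0.05 FPKM.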

How the data were processed

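The authors deposited FPKM values with 2 decimals for 20125 features in 30 libraries. Per the study's methods only unique alignments were kept, picard took out duplicates, and Cufflinks gave the FPKM. The aligner and the genome build are not given in the sources used here. The lowest value above 0 was 0.01 in each of the 10 libraries, and the table holds no read counts, so no counting interval is given. Read numbers listed by the study were not used here. Gene symbols are RefSeq's for assembly ARS1.2 (17945 of 17946 NCBI gene numbers matched), and 2179 features had no number.

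Features with FPKM above 0.5 in at least 5 of the 30 libraries were tested (6058) with limma 3.58.1 in R 4.3.3 on log2(FPKM + 1), with 6 groups in 1 fit, a robust and trended prior, and Benjamini-Hochberg adjustment at a threshold of 0.05. This scale understates the change of low features. Library measures were compared by two-sided exact permutation tests and adjusted over 6 measures. Fisher's exact test was run with scipy 1.17.1. The fit was also run on simulated data, in which a feature had the same chance of being above 0 in every library. The real libraries differ in detection, so that run does not show how the fit behaves on them. No libraries were identical.

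Genes were named by rule. In each direction these were the 10 with a symbol and the lowest limma p, and 3 for the class difference. The lowest p of all was named where it has no symbol. Also named were 5 above 0 in all libraries of 1 size only. From those above 0 in all 10 libraries, the 10 with the highest mean were named. The rule also gave the 3 found in the most libraries of each list, and not all of these are printed. Further genes (the other 2 above 0 in all 10 libraries, some list members at an unadjusted p under 0.05, features without a symbol, and features called without 3 LLG libraries) were added after their values were seen. The comparison and the lists were chosen with earlier results of these data known. Alternatives were the pseudocount, the filter, scaling, library weights, a detection covariate, the samples in the fit, a replicate block and leaving out libraries.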

Additional observations from a re-analysis of the deposited data

Results flagged for a closer look

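In 32 sets of 5 libraries, 2 libraries lay further from the others than Dixon's limit allows, where chance gives about 1 in 20 sets, or 1.6. LLG-8 had 2284 features at 1 FPKM or more, against 201 to 745 in the other LLG libraries. LLG-7 had a median of 7.51 FPKM over its features above 0, against 0.1 to 2.06 FPKM in the other LLG libraries; it also had the fewest features above 0, 301.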

How the results depend on the processing

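The count of features called between LLG and LMG was 0, and it moved to 2 and 4 with pseudocounts of 0.1 and 0.5, to 2 with scaling by shared features, to 1 with the stricter filter (10 libraries), to 636 with library quality weights, and to between 0 and 7 with single libraries left out, where it was above 0 without LMG-5, LMG-8, LMG-9 or LMG-10. Without LLG-5, LLG-7 and LLG-10, an alternative chosen after seeing the data, it was 3. The count for the class difference was 0 in every other setting and was not computed without these 3 libraries. The cause of these moves was not tested.

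With single libraries left out, the difference in features above 0 ran from -6622 to -5236, at 1 FPKM or more from -1726 to -1205, at 10 FPKM or more from 87.3 to 126.0, in summed FPKM from -8350 to 3587, in the share of the 58 features from -0.341 to 0.935 and in the Spearman measure from 0.00432 to 0.0417. Summed FPKM turned positive without LLG-5 (1316) or LLG-7 (3587), and the share turned negative without LLG-9 (-0.341) or LLG-10 (-0.300). With fewer libraries the exact tests have fewer assignments.

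Without LLG-5 and LLG-7 the differences were -4682, -1043 and 124.5 features (none past the threshold), 10609.1 summed FPKM and -0.00432 in the Spearman measure. Without LLG-5, LLG-7 and LLG-10 they were -3630, -692.3 and 108.8 features (none past the threshold), 13374 summed FPKM and -0.0155, and the log2 differences of KIAA0895 and ARPC5 were -0.24 and -0.28. With numbered features only, the difference at 1 FPKM or more was -1158 (not past the threshold), summed FPKM 56.15 and the Spearman measure -0.0141. Pearson's correlation gave -0.108 and Spearman's over the 58 features -0.0873.

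The correlation of deviations from the group mean between LLG and LMG libraries of the same number lay between -0.0133 and 0.0198. With so many zeros this cannot settle whether libraries of the same number are paired. With the number as a replicate block, the differences of -5684, -1365 and 107 features did not pass the threshold (exact sign-flip test, smallest p 0.0625, adjusted p = 0.156, 0.208 and 0.156), and limma called 0 features (28 higher and 548 lower at an unadjusted p under 0.05). The table holds no read counts, and whether read depth differed with detection was not tested.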
